A study of Drosophila melanogaster with 6 samples.

Results

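This report concerns 8 antimicrobial peptide genes of Drosophila melanogaster, AttA, AttB, AttC, Dro, DptA, DptB, Drs and Mtk, in single cells of the fly brain. The genes were chosen by symbol, and all 8 were found among the 16493 genes (22064 features with transposable elements) of the deposited count tables. Their level was followed in every library and cell class. The study compared flies lacking Appl, the single fly ortholog of the human amyloid precursor protein APP, with control flies. Each of 3 libraries per genotype was made from the brains of 20 male and 20 female flies aged 10 days, dissociated with trypsin. Control flies were w1118. The Appl- flies carried Appl[d] w[*], in which Appl[d] is a synthetic deletion of the central part of the gene and the white allele is not specified, so that the wider genetic background of the 2 stocks may differ. Transcripts were counted at their 3′ ends as unique molecular identifiers (UMIs), which mark single captured molecules.

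Antimicrobial peptides are short secreted proteins that kill bacteria and fungi. In flies their genes are switched on by NF-kappaB factors, chiefly Relish at the end of the Imd pathway, which responds to bacterial peptidoglycan, and Dif and Dorsal at the end of the Toll pathway, which responds to fungi and to many Gram-positive bacteria. The fat body, a liver-like tissue that also lines the head capsule around the brain, is their main source after infection, with hemocytes, the blood cells, and barrier tissues as further sources. In the brain, glia and neurons are also known to express some of these peptides with age, infection or injury.

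The members differ in what they act on and in the pathway that drives them. AttA (FBgn0012042), AttB (FBgn0041581) and AttC (FBgn0041579) encode attacins, and DptA (FBgn0004240) and DptB (FBgn0034407) encode diptericins, both glycine-rich peptides active mainly against Gram-negative bacteria. Dro (FBgn0010388) encodes drosocin, a proline-rich peptide of similar range. These genes are classical targets of the Imd pathway. Drs (FBgn0283461) encodes drosomycin, an antifungal peptide and the classical reporter of Toll signalling. Mtk (FBgn0014865) encodes metchnikowin, active against fungi and Gram-positive bacteria and open to both pathways. AttA and AttB are near-identical paralogs, so the split of reads between them is uncertain. AttC and DptB overlap genes on the opposite strand (CG4744 and CG43109) and Mtk overlaps Stacl on its own strand, so some of their UMIs may belong to those neighbours.

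The 67362 barcodes in the files held 11282730 to 56384733 UMIs per library. Barcodes with 200 or more genes and no more than 10% mitochondrial UMIs were kept as cells, leaving 25188 (3154 to 6461 per library, 9318086 to 20896015 UMIs). Control replicate 1 stood apart, with 29008 barcodes of which 15.3% were kept, against 36.1 to 68.2% in the other libraries. Any 2 libraries shared 2 to 16 barcodes among their kept cells. Appl was at 2029, 2355 and 2116 CPM (counts scaled to the total gene UMIs of the library) in control replicates 1, 2 and 3 and at 203, 249 and 233 CPM in Appl- replicates 1, 2 and 3, as the labels require (log2 fold change -3.22, SE 0.12, adjusted p = 1.89e-05, edgeR). Of 56 clusters, 47 were neuron-like (23725 cells), 2 glia-like (340 cells), 1 fat body-like (123 cells) and 1 hemocyte-like (42 cells), named from marker lists. All 8 members, the other immune genes described here and the yolk protein genes were left out of the genes used for clustering.

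Over all kept cells, the antimicrobial peptide genes were lower in brains lacking Appl. Summed over the 8 genes, control replicates 1, 2 and 3 held 4006, 361 and 843 UMIs, which is 243, 29.7 and 67.5 CPM. Appl- replicates 1, 2 and 3 held 38, 78 and 50 UMIs, which is 2.83, 3.73 and 5.37 CPM. The lowest control library was thus 5.53 times the highest Appl- library, and the group means were 114 ± 114 and 3.98 ± 1.29 CPM (SD, n = 3 libraries each). The pooled ratio was 33.3 (95% counting interval 28.6 to 39.1, which covers counting error only), and 12.9 without control replicate 1. No p is given for the sum, because the genes were chosen with earlier results of these data known.

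Gene by gene, the 3 Appl- libraries were all below the 3 control libraries for 7 of the 8 members, with Drs as the exception. Over all genes with at least 40 UMIs in both genotypes together, which every member had, this held for 15.3%. Only Dro and Drs had 40 UMIs in Appl- cells alone (74 and 45), so the other members reached this limit through the controls. In the test over summed counts (edgeR's quasi-likelihood test, 8511 genes, called at an adjusted p under 0.05 and past the fold threshold of the study's methods), 2.93% of genes were called lower and 3.02% higher in Appl- (249 and 257 genes; a replicate block gave 503 and 412). The filter on low counts let 4 of the 8 members through, AttC, Dro, Drs and Mtk. Of these, Dro and Mtk were called lower. Both, like AttC, passed the filter through the control libraries, the group where they were high, while Drs passed through libraries of both genotypes.

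Mtk, the metchnikowin gene, had 861, 159 and 255 UMIs in control replicates 1, 2 and 3 (52.3, 13.1 and 20.4 CPM). In Appl- replicates 1, 2 and 3 it had 13, 3 and 2 UMIs (0.967, 0.144 and 0.215 CPM). Every control library was at least 13.5 times the highest Appl- library. Mtk fell by 6.04 on the log2 scale (SE 0.81, adjusted p = 0.00732, edgeR). With the replicate number as a block the adjusted p was 0.000252, and without control replicate 1 the log2 fold change was -5.23 (adjusted p = 0.00191, edgeR). Without Appl- replicate 2 the call was lost (adjusted p = 0.0556, edgeR), and it was kept in the other 17 alternatives run. Leaving out Appl- replicate 1 gave the largest fall (log2 fold change -7.34, edgeR).

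Dro, the drosocin gene, gave 1117, 137 and 363 UMIs in controls (67.9, 11.3 and 29.1 CPM). The Appl- replicates held 14, 56 and 4 UMIs (1.04, 2.68 and 0.429 CPM). The groups did not overlap, and the highest Appl- library, replicate 2, was 4.21 times below the lowest control. Dro fell by 4.51 on the log2 scale (SE 0.81, adjusted p = 0.0251, edgeR). Without control replicate 1 the log2 fold change was -3.63 (adjusted p = 0.0148, edgeR). The call was lost without Appl- replicate 1, 2 or 3 (adjusted p = 0.116, 0.0685 and 0.0968, edgeR), the value without replicate 2 being -5.51, and with a minimum of 500 genes per cell (0.0607).

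AttC had the most uneven control values, 1653, 20 and 113 UMIs (100.4, 1.65 and 9.05 CPM) in replicates 1, 2 and 3. The Appl- replicates held 2, 7 and 1 UMIs (0.149, 0.335 and 0.107 CPM), below every control. Control replicate 1 alone held 1653 of the 1786 control UMIs, and the pooled ratio of 190 (95% counting interval 103 to 396) became 23.6 without that library. The test did not call AttC (log2 fold change -7.31, SE 1.84, adjusted p = 0.0671, edgeR). It was called with the replicate number as a block (adjusted p = 0.0151) and without control replicate 1 (log2 fold change -4.49, adjusted p = 0.0211, edgeR). In all it was called in 5 of 17 alternatives.

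The other attacin genes had few UMIs. AttA had 79, 5 and 16 UMIs in control replicates 1, 2 and 3 and 5, 8 and 1 in the Appl- replicates. On the CPM scale its lowest control stood only 1.07 times above its highest Appl- library, and 14 UMIs were counted in all of the Appl- cells. AttB had 54, 6 and 4 UMIs in the controls and 1, 3 and 0 in Appl-, a pooled ratio of 17.0 (95% counting interval 6.32 to 64.3) that became 4.43 without control replicate 1. Neither passed the filter on low counts. Without the filter, edgeR gave adjusted p = 0.115 for AttA and 0.0891 for AttB, and neither was called.

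The diptericin genes were close to absent from the kept cells of the Appl- libraries. DptA had 42, 3 and 60 UMIs in control replicates 1, 2 and 3, and 1 UMI in Appl- replicate 1 and 0 in the others. Its pooled ratio of 112 has a 95% counting interval from 19.6 to 4447, and 55 of the 60 UMIs of control replicate 3 came from 1 cell. DptB had 46, 6 and 24 UMIs in the controls and 0 in all of the Appl- libraries, which is at least 26.9-fold lower when 3 counts are allowed over the Appl- group (at least 17.7-fold without control replicate 1). Neither passed the filter with all libraries in. With no filter on low counts both were called lower (adjusted p = 0.0252 for DptA and 0.0177 for DptB, edgeR). With the filter kept, both passed it when control replicate 2 or any 1 Appl- replicate was left out. Without control replicate 2 both were called lower (adjusted p = 0.0142 for DptA and 0.0327 for DptB, edgeR). Without Appl- replicate 1, 2 or 3 neither was called (adjusted p = 0.172, 0.193 and 0.165 for DptA and 0.116, 0.139 and 0.106 for DptB, edgeR). DptB was also tested without the mitochondrial limit and over all deposited barcodes, and was called in neither. Its log2 fold changes there were -3.50 and -3.51 (adjusted p = 0.214 and 0.211, edgeR). The bound of 26.9-fold thus holds for the kept cells only.

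Drs, the drosomycin gene, did not separate the genotypes. It had 154, 25 and 8 UMIs in control replicates 1, 2 and 3 and 2, 1 and 42 UMIs in the Appl- replicates, so that Appl- replicate 3 (4.51 CPM) was above control replicates 2 and 3 (2.06 and 0.641 CPM). Its log2 fold change was -1.53 (SE 1.45, adjusted p = 0.628, edgeR), 0.082 without control replicate 1 and -5.35 without Appl- replicate 3 (adjusted p = 0.984 and 0.166, edgeR). Of the 42 UMIs of Appl- replicate 3, 41 were in hemocyte-like cells and 38 in a single cell of 8374 UMIs. In neuron-like cells Drs had 90, 4 and 6 UMIs in the controls and 2, 1 and 1 in Appl-.

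**Figure D1:**
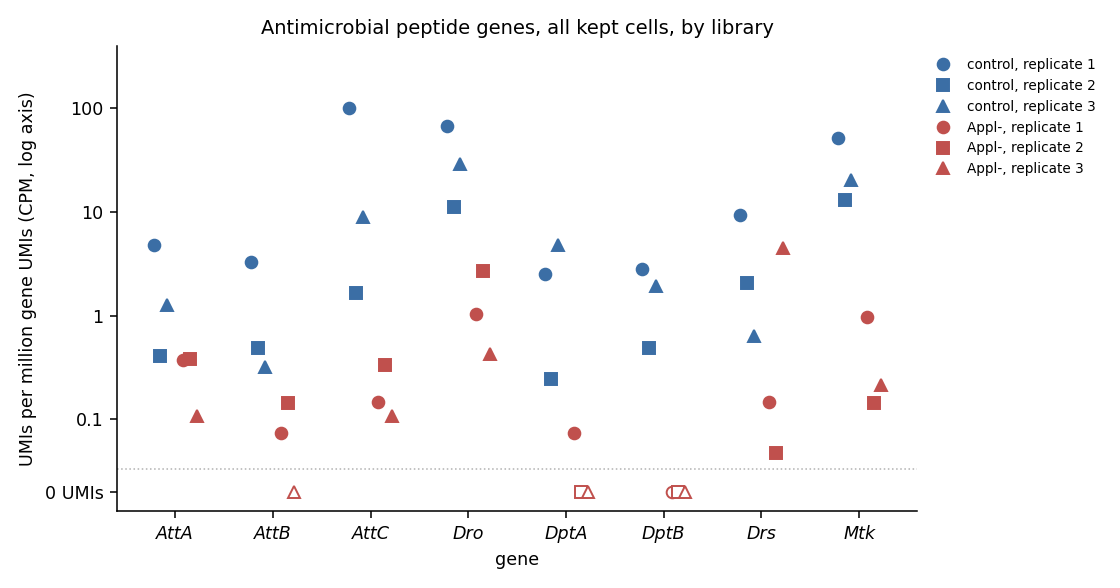
Level of each antimicrobial peptide gene over all kept cells, in CPM on a log axis, with 1 point per library and libraries without a UMI on the lowest line. The 3 Appl- points lie below the 3 control points for every gene but Drs, and control replicate 1 is highest for all except DptA.

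Among the control libraries, the summed level followed the number of fat body-like cells and the level of the yolk genes. Yp1, Yp2 and Yp3 encode yolk proteins that female fat body and ovarian follicle cells secrete. Fat body-like cells numbered 76, 3 and 42 in control replicates 1, 2 and 3 (1.71, 0.0887 and 1.03% of kept cells). There were 1, 1 and 0 in the Appl- replicates (0.0274, 0.0155 and 0%, where 0 cells allow up to 0.117% by the exact binomial interval). The groups did not overlap (p = 0.1 by an exact two-sided permutation test that ignored the replicate numbers). Unpaired, a design of 3 against 3 libraries can go no lower. Without the mitochondrial limit the same class held 1012, 20 and 80 cells in the controls and 5, 2 and 0 in Appl-. In counts summed over a brain, fewer cells of a type and less RNA per cell cannot be told apart.

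The summed yolk protein level over all kept cells was 4947, 75.4 and 455 CPM in control replicates 1, 2 and 3 and 12.9, 7.8 and 4.3 CPM in the Appl- replicates, the same order of control libraries as for the summed antimicrobial peptide genes and the reverse order of Appl- libraries. The fat body markers gave a less clear split. The 8 listed (apolpp, Apoltp, Lsp2, FASN1, Tsf1, fit, Gnmt and AkhR) summed to 380, 356 and 129 CPM in the controls and to 148, 121 and 103 CPM in Appl-, so the groups overlapped, while Lsp2 and Gnmt were at 0 UMIs in all of the Appl- libraries. The 12 hemocyte markers summed to 374, 206 and 219 CPM against 118, 109 and 136 CPM, with NimC1 and eater at 0 in Appl- replicate 1. lncRNA:roX1, a male-specific RNA, was at 2667, 3869 and 4501 CPM in the controls and at 3648, 4705 and 4669 CPM in Appl-, lowest in control replicate 1. The part of cell makeup, sex ratio or carried-over tissue in the difference between genotypes was not tested. Without fat body-like cells, the summed antimicrobial peptide level differed by -3.86 (mean of log2 CPM, Appl- minus control), against -4.36 with them. Dro and Mtk were called there (adjusted p = 0.0485 for Dro, edgeR). The yolk protein genes kept their split too when these cells were dropped. Their lowest control sum was then 70.4 CPM (replicate 2) and their highest Appl- sum 10.6 CPM (replicate 1). Dropping the cells thus left yolk protein UMIs counted in other cells, and the share of fat body RNA in those cells was not tested.

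**Figure D2:**
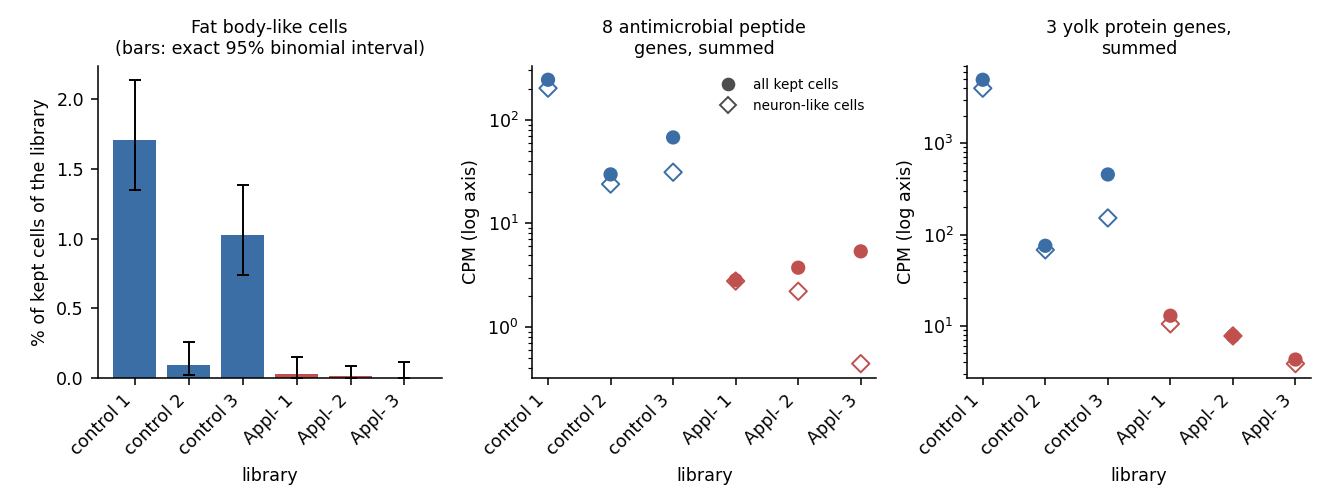
Fat body-like cells as a percentage of kept cells with exact 95% binomial intervals (left), the summed level of the 8 antimicrobial peptide genes (middle) and that of the 3 yolk protein genes (right), per library, both in CPM on a log axis with all kept cells as filled circles and neuron-like cells as open diamonds. In all panels control replicate 1 is highest and control replicate 2 lowest among the controls, and the Appl- libraries lie below.

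By cell class, the genes were most concentrated in the fat body-like cluster. Its 123 cells had 7 of 8 fat body markers raised (apolpp, Apoltp, Lsp2, FASN1, Tsf1, fit and Gnmt), although its 10 leading genes held none of these and did hold Yp2, Yp3 and Dro itself. Nplp2 of the hemocyte list was raised there too. In control brains these cells were 1.01% of the kept cells and held 20.1% of the antimicrobial peptide UMIs. The share differed between libraries, at 13.6, 13.0 and 53.9% in control replicates 1, 2 and 3, and was 41.6% without replicate 1. In replicate 3, 1 cell held 290 of the 454 fat body-like UMIs. Neuron-like cells were 92.0% of the cells and held 68.8%, and hemocyte-like cells were 0.31% and held 3.15%.

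Fat body-like cells held 546, 47 and 454 UMIs of the 8 genes in control replicates 1, 2 and 3, at summed levels of 2458, 11074 and 8199 CPM. The levels in neuron-like cells of the same libraries were 202, 23.9 and 31.2 CPM. Within each control library the fat body-like level was thus the higher, by 3.61, 8.88 and 8.04 on the log2 scale (1 UMI added to both sums). Control replicate 2 rests on 3 cells, and 290 of the 454 UMIs of control replicate 3 came from 1 cell. In Appl- replicates 1 and 2 the single fat body-like cell had 0 member UMIs, so no Appl- level can be read and no test between genotypes was made in this class.

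Most of the fat body-like signal came from AttC, Dro and Mtk. AttC had 279, 10 and 60 UMIs in these cells of control replicates 1, 2 and 3, and Dro had 181, 26 and 214. Mtk had 58, 2 and 91. AttC led in replicate 1 (51.1% of the antimicrobial peptide UMIs of the class) and Dro in replicate 3 (47.1%), so the make-up differed between 2 libraries of one genotype. In replicate 3, 1 cell gave 125 of the 214 Dro UMIs and 62 of the 91 Mtk UMIs. DptA had 3, 1 and 56 UMIs, DptB 9, 1 and 19, AttA 10, 2 and 12, AttB 3, 1 and 2, and Drs 3, 4 and 0.

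Fat body-like cells also differed among themselves. Of the 121 in control brains, 31 had no UMI of any of the 8 genes, 29 had UMIs of 1 gene, 30 of 2, 17 of 3, and 14 of 4 to 7. AttC was seen in 63 cells (52.1%), Dro in 57 (47.1%) and Mtk in 45 (37.2%), while AttA was seen in 14, DptB in 11, DptA in 6, AttB in 5 and Drs in 4. AttC and Dro were seen together in 38 cells. At least 5 member UMIs were found in 41 of the 121 cells (33.9%), against 86 of 10964 control neuron-like cells (0.784%) and 0 of 197 control glia-like cells.

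The cell with the most antimicrobial peptide UMIs was a fat body-like cell of control replicate 3. It held 938 UMIs in all, of which 290 (30.9%) were of 7 member genes, Dro with 125, Mtk with 62, DptA with 55, AttC with 23, DptB with 14, AttA with 9 and AttB with 2. This cell alone gave 51.9% of all DptA UMIs in the data. Over all libraries the 5376 member UMIs were spread over 2519 cells, 1684 of which had 1 UMI, and the 10 leading cells held 15.0%.

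**Figure D3:**
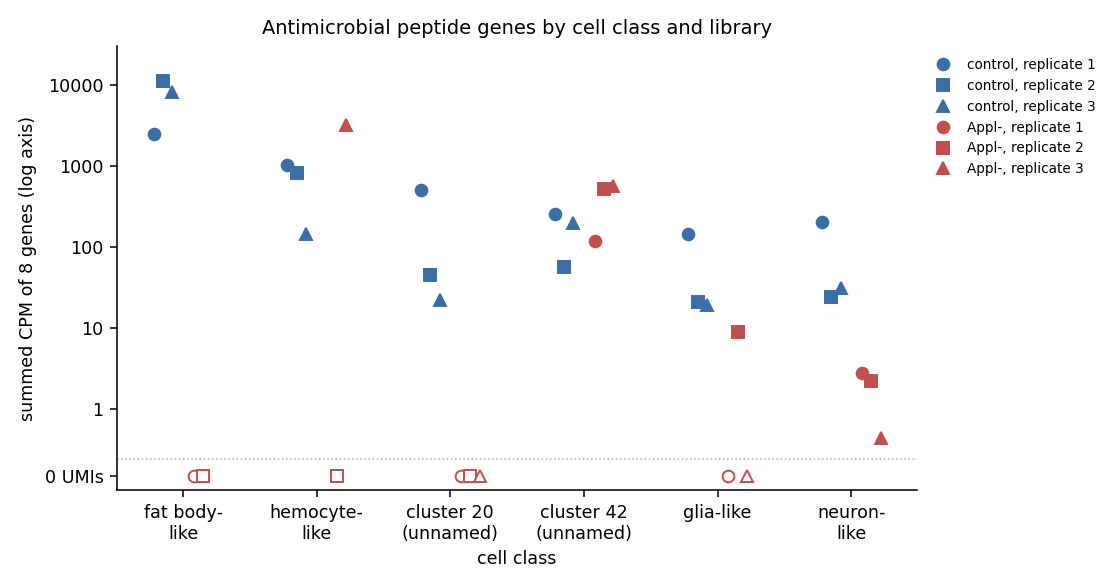
Summed level of the 8 antimicrobial peptide genes by cell class and library, in CPM on a log axis, with classes without a UMI on the lowest line and libraries without a cell of the class left out. In the controls the fat body-like cells lie highest, and outside neuron-like cells and cluster 42 no class of an Appl- library plotted held more than 2 UMIs, except the 42 in hemocyte-like cells of replicate 3.

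In hemocyte-like cells Drs took a larger share of the antimicrobial peptide UMIs, a difference that was not tested. These cells, with 11 of 12 hemocyte markers raised and also Yp1 to Yp3 and Lsp2, numbered 17, 10 and 10 in control replicates 1, 2 and 3 and 0, 3 and 2 in the Appl- replicates. Drs led there, with 58, 17 and 2 UMIs in the controls and 41 UMIs in Appl- replicate 3. Mtk had 52, 5 and 1 UMIs in the controls and AttC 13, 0 and 0. Drs was 43.3% of the antimicrobial peptide UMIs of hemocyte-like cells in control replicate 1 and 65.4% in control replicate 2, whereas in fat body-like cells it had 3 of 546, 4 of 47 and 0 of 454 UMIs in control replicates 1, 2 and 3. Few hemocyte-like cells set these control shares. Single cells had 31, 18 and 8 of the 58 Drs UMIs of control replicate 1, and 7 and 7 of the 17 of control replicate 2. Hemocyte-like cells of control replicate 3 held 4 member UMIs in all. The summed levels were 1016, 809 and 146 CPM in the control replicates, 0 in Appl- replicate 2 and 3188 CPM in Appl- replicate 3, the last set by 1 cell.

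**Figure D4:**
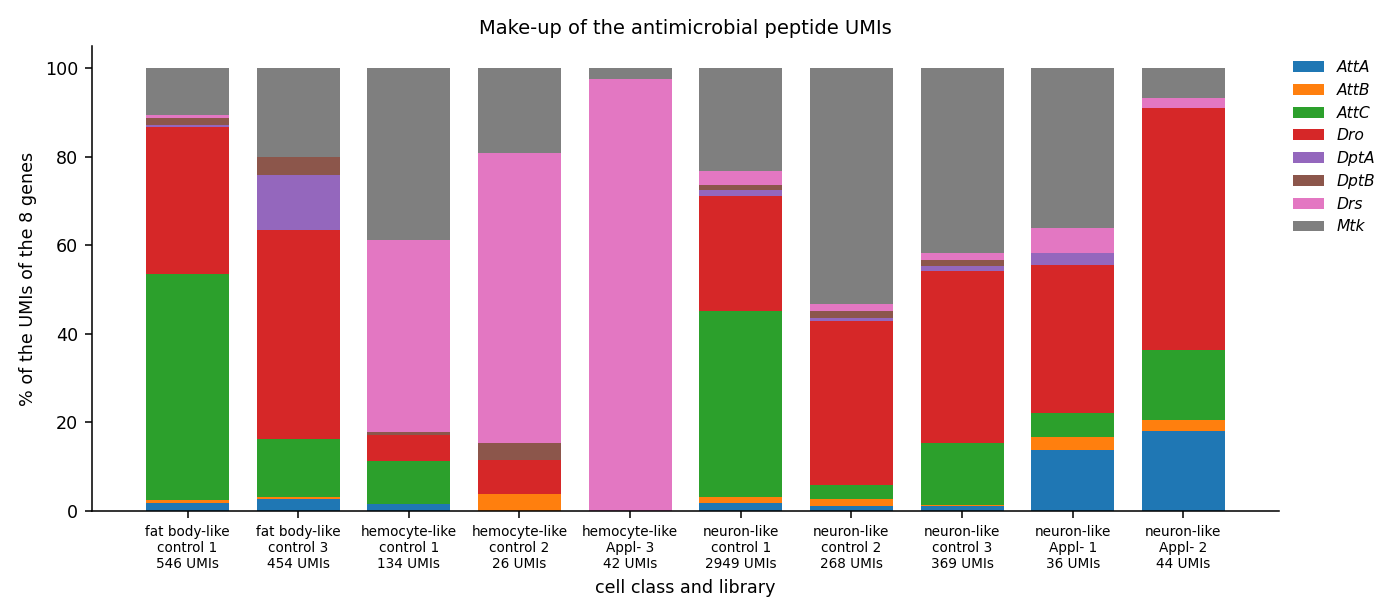
Share of each antimicrobial peptide gene among the member UMIs of a cell class in one library, in %, for classes with at least 20 such UMIs, with the number of UMIs under each bar. AttC and Dro take most of the fat body-like bars of control replicates 1 and 3, and Drs the largest part of the hemocyte-like bars.

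Neuron-like cells were most of the cells and held most of the UMIs. Summed over the 8 genes they had 2949, 268 and 369 UMIs in control replicates 1, 2 and 3 and 36, 44 and 4 in the Appl- replicates (202, 23.9 and 31.2 against 2.77, 2.21 and 0.442 CPM). The pooled ratio was 47.6 (95% counting interval 38.3 to 59.8), and 13.8 without control replicate 1, which held 2949 of the 3586 control UMIs. For 7 of the 8 genes all of the Appl- libraries were below all of the controls, against 12.6% of genes with at least 40 UMIs in these cells. The members reached that limit through the controls, Dro having the most Appl- UMIs (36). AttA, with 55, 3 and 4 UMIs against 5, 8 and 1, overlapped.

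In the test over neuron-like sums 2.77% of 8197 genes were called lower (227 genes, or 487 under a replicate block). Mtk had 688, 143 and 154 UMIs in neuron-like cells of the controls and 13, 3 and 1 in Appl-, a log2 fold change of -5.86 (SE 0.83, adjusted p = 0.00441, edgeR), called in all 17 alternatives run (-4.91 without control replicate 1 and -7.38 without Appl- replicate 1). Dro had 766, 99 and 143 UMIs against 12, 24 and 0 and fell by 4.88 on the log2 scale (SE 0.90, adjusted p = 0.0158, edgeR). Without control replicate 1 its log2 fold change was -3.63 (adjusted p = 0.00195, edgeR). The Dro call was lost without any 1 of Appl- replicates 1, 2 and 3 (adjusted p = 0.0734, 0.0773 and 0.0596; log2 fold change -5.53 without replicate 2, edgeR) and without the mitochondrial limit (0.0677). Mtk and Dro passed the filter on these sums through the control libraries, and the other members did not pass it. AttC had 1237, 9 and 52 UMIs against 2, 7 and 1, with control replicate 1 again far above the rest.

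Per neuron-like cell the counts were low. At least 1 member UMI was seen in 43.2, 6.52 and 5.64% of the neuron-like cells of control replicates 1, 2 and 3 and in 0.882, 0.566 and 0.131% of those of Appl- replicates 1, 2 and 3. Of the cells with any, 67.1, 80.2 and 72.9% in the controls had exactly 1 UMI. With each cell thinned to 1000 UMIs the shares were 19.1, 2.77 and 2.43% in the controls and 0.350, 0.324 and 0.0711% in Appl-. The thinned shares in fat body-like cells were 54.7% (75 cells) in control replicate 1 and 59.1% (22 cells) in control replicate 3, and 81.6 and 61.9% before thinning.

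Free RNA in the droplets gives UMIs in cells that do not make a transcript, and the yolk protein genes, which neurons should lack, serve as its gauge. Their summed level in neuron-like cells was 3996, 68.1 and 152 CPM in control replicates 1, 2 and 3 and 10.6, 7.8 and 3.9 CPM in the Appl- replicates. In control replicate 1 the neuron-like level of Yp1, Yp2 and Yp3 was 5.58, 4.81 and 5.17% of the fat body-like level. The antimicrobial peptide genes stood at 6.74% for AttC, 6.43% for Dro and 18.0% for Mtk, at 8.36% for AttA and 5.57% for DptB, and, with 3 fat body-like UMIs each, at 20.8% for AttB, 19.8% for DptA and 45.6% for Drs.

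In control replicate 3 the same percentages were 0.212, 0.219 and 0.236% for the yolk protein genes. They were 0.405% for AttC, 0.312% for Dro and 0.791% for Mtk, 0.156% for AttA, 0.234% for AttB, 0.123% for DptB and 0.0334% for DptA, while Drs had no UMI in the fat body-like cells. AttC, Dro and Mtk thus stood above the yolk protein genes in both replicates, DptA above them in replicate 1 and below in replicate 3, and AttA and DptB below them in replicate 3. In replicate 3, 1 fat body-like cell held 55 of the 56 DptA, 9 of the 12 AttA and 14 of the 19 DptB UMIs of its class. The place of these 3 genes below the yolk protein genes thus rests on that cell. Of the fat body markers, apolpp, Apoltp, Lsp2, FASN1, Tsf1 and fit also stood above the yolk protein genes in both replicates. Lsp2 was at 8.61 and 0.545% in replicates 1 and 3, fit at 9.26 and 0.292%, and Tsf1 at 11.5 and 5.32%. Gnmt, at 4.98 and 0.104%, did not. The ratio of AttC to Mtk UMIs was 4.81 in fat body-like cells of control replicate 1, 1.80 in neuron-like cells and 0.25 in hemocyte-like cells. In control replicate 3 it was 0.659 in fat body-like and 0.338 in neuron-like cells. How much of the neuron-like level was free RNA was not tested.

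In glia-like cells the level was close to that in neuron-like cells of the same control library. The 2 clusters had 6 and 7 glial markers raised, the larger one also with apolpp and Tsf1 raised, and numbered 84, 58 and 55 cells in control replicates 1, 2 and 3 and 38, 77 and 28 in the Appl- replicates. The 8 genes had 56, 7 and 3 UMIs there in the controls and 0, 2 and 0 in Appl-. The levels, 145, 21.1 and 19.1 CPM in the controls, gave log2 ratios over neuron-like cells of -0.45, 0.01 and -0.29 (1 UMI added to both sums), so no excess of glia-like over neuron-like cells was detectable at this depth. AttC gave 35, 1 and 1 of these UMIs and Mtk 13, 4 and 1. In the test over glia-like sums 1.01% of 2666 genes were called (27 genes, or 156 under a replicate block), and no member passed the filter. With no filter AttC was called lower (adjusted p = 0.000871, edgeR) and Mtk was not (0.0615). Without the mitochondrial limit glia-like cells numbered 3885, of which 1967 were of control replicate 1. In that setting 91 of 5196 genes were called, 50 higher and 41 lower in Appl-. Dro and Mtk passed the filter there and were called lower. Their log2 fold changes were -6.87 and -5.91 (adjusted p = 0.0233 and 0.00397, edgeR). Genes of other tissues moved with AttC in the kept glia-like cells. The yolk protein genes summed to 3468, 154 and 128 CPM in glia-like cells of control replicates 1, 2 and 3 and to 25.6, 0 and 15.5 CPM in Appl-, and the 8 fat body markers to 3217, 9133 and 1780 CPM against 921, 1547 and 497 CPM, 3 to 8 of the 8 having a UMI in a library. The part of these other-tissue genes in the glia-like calls was not tested.

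Across the 47 neuron-like clusters the summed level, with libraries pooled, ran from 0 to 103 CPM with a median of 49.5 CPM, a spread that includes the different mix of libraries in each cluster. Within control replicate 1 alone, the 36 neuron-like clusters with at least 20 of its cells ran from 91.8 to 416 CPM (median 232 CPM). Over all 56 clusters the genes outside the immune lists whose level was most like that of the summed members were CG11899 (Pearson r = 0.90), eEF1gamma (0.87), CG11400 (0.86), Yp1 (0.86) and Sccpdh2 (0.85), out of 8128 genes ranked. These are correlations across clusters that share the same libraries in different mixes, given without a test. Leaving out the fat body-like cluster lowered them to 0.75 to 0.81.

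In 6 further lists of immune genes, chosen with earlier results of these data known, 6 genes were called lower and 1 higher over all cells. Among all 8511 genes tested, 2.93% were called lower and 3.02% higher. Of 16 other antimicrobial peptide genes, 5 could be tested over all cells and 0 were called by edgeR, with 3 at an unadjusted p under 0.05 and all 5 log2 fold changes below 0 (median -2.54). Over all 8511 genes tested the median was -0.00, and 21.3% were at an unadjusted p under 0.05. CecC, a cecropin gene and the most abundant of them, had 414, 74 and 26 UMIs in the controls and 0, 2 and 85 in Appl-, a split like that of Drs. Among 19 Bomanin and Toll-induced peptide genes, 3 of 11 tested were called lower and 0 higher, with 8 at an unadjusted p under 0.05 and all 11 log2 fold changes below 0 (median -2.10). BomS5 fell by 3.84 on the log2 scale (SE 0.73, adjusted p = 0.0298, edgeR). BomS6 fell by 2.41 (SE 0.45, adjusted p = 0.0283) and BomBc3 by 3.00 (SE 0.63, adjusted p = 0.0411, edgeR).

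Of the 15 recognition genes, 1 of 5 tested fell (median -1.39), PGRP-SC2, an amidase that degrades peptidoglycan (log2 fold change -4.65, SE 1.04, adjusted p = 0.0476, edgeR). Among the Imd signalling genes 0 of 19 tested were called by edgeR, with 2 at an unadjusted p under 0.05 and a median of -0.02. The adaptor imd stood at 0.23 (adjusted p = 0.356) and the NF-kappaB factor Rel at -1.01 (SE 0.58, adjusted p = 0.385, edgeR). Of 12 Toll signalling genes tested, 1 fell (median -0.11). It was nec, a serpin that restrains Toll activation (369, 71 and 71 UMIs in the controls against 14, 23 and 4 in Appl-, log2 fold change -3.63, SE 0.69, adjusted p = 0.0296, edgeR).

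In the JAK-STAT and stress peptide list 1 of 8 tested genes fell and 1 rose (median -0.11). TotA, a secreted stress peptide, had 331, 114 and 153 UMIs in control replicates 1, 2 and 3 and 23, 19 and 13 in the Appl- replicates (log2 fold change -3.38, SE 0.38, adjusted p = 0.00334, edgeR), without overlap. The receptor gene dome rose by 0.38 (SE 0.08, adjusted p = 0.0464, edgeR). In neuron-like cells TotA (log2 fold change -3.34, adjusted p = 0.000676, edgeR) and BomBc3 (-2.99, adjusted p = 0.0451, edgeR) were called lower, as were 2.77% of all genes tested there. By edgeR 0 of 19 Imd and 0 of 12 Toll signalling genes were called in these cells, with 3 and 4 at an unadjusted p under 0.05, as were 19.5% of all genes tested there. A difference in size between the lists was not tested.

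**Figure D5:**
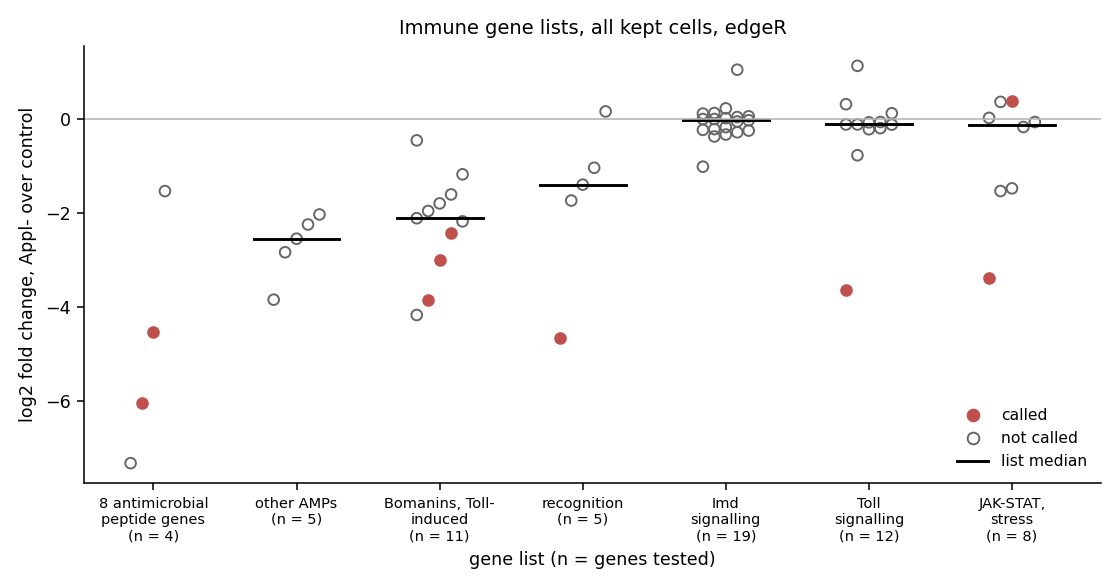
Log2 fold change, Appl- over control, over all kept cells for the tested genes of each immune list (1 point per gene, filled where called by edgeR, with a bar at each list's median except for the 8 members). The tested members, other antimicrobial peptide genes and Bomanin and Toll-induced peptide genes all lie below 0, with Mtk, Dro, BomS5, BomS6 and BomBc3 called lower. PGRP-SC2 of the recognition list, nec of the Toll list and TotA of the JAK-STAT list were also called lower, and dome of the JAK-STAT list higher. The medians of the Imd, Toll and JAK-STAT lists lie between -0.11 and -0.02.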

How the data were processed

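Single-cell 3′ libraries were made with the Chromium Next GEM kit v3.1. The authors counted UMIs per gene and barcode with Cell Ranger 6.0 (submitters' processing notes) and deposited raw counts for the barcodes called as cells, with no normalization. The genome build and the use of strand are not given in the sources used here. Of the 16493 gene IDs, 99.7% matched the BDGP6.54 annotation, used for names, overlaps and neighbours only.

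Kept cells were clustered in Python 3.11.15 by scanpy 1.11.5 with leidenalg 0.10.2 (2000 variable genes, 30 principal components, 20 neighbours, resolution 1), and clusters were named from marker lists. Doublets were not removed. Counts summed per library and class were scaled to CPM from the deposited counts and tested with edgeR 4.0.16 in R 4.3.3 (TMM, filter on low counts, Benjamini-Hochberg adjustment over all genes tested). The genotype was the sole term. Fat body-like sums were not tested, because 4 libraries had under 10 such cells. The test was also tried on simulated data, and recovered 83.0% of the changed genes in the case modelled on all cells (8511 genes), where 5.14% of its calls were false. In the case modelled on glia-like cells (2666 genes) it recovered 71.0%. The changed genes were drawn from all genes that passed the filter, so recovery at the depth of the members was not tested. Counting intervals are exact at 95%. Nothing in the labels says that replicates came from separate cultures of flies, so p-values measure the spread between these libraries.

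The replicate numbers may pair the samples. Deviations from the group means correlated at 0.246, 0.207 and 0.333 between same-numbered control and Appl- libraries over all cells, although the labels do not say what a number shares. Between libraries of different number the correlations ran from -0.237 to 0.0231. The reported tests left this possible pairing out, and the replicate block was run as an alternative. Alternatives were other limits on cells, normalizations, DESeq2 1.42.0, no filter, the replicate block, each library left out, no top cells and no fat body-like cells. All deposited barcodes, barcodes above the mitochondrial limit, removal of hemocyte-like cells, 1 CPM added and a minimum of 3 cells were added after seeing the data. The members, gene lists and markers were chosen with earlier results of these data known. Named genes were the members, Appl, genes called in an immune list, the most abundant or most changed of a list, the 5 genes most like the members over clusters, and class markers. The genes imd, Rel and lncRNA:roX1, the overlapping neighbours and the leading genes of unnamed clusters were named outside this rule. A search of promoters for binding motifs was not made.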

Additional observations from a re-analysis of the deposited data

How the results depend on the processing

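The summed level of the 8 genes over all cells was lower in Appl- under every alternative run, with the libraries not overlapping (difference of mean log2 CPM -3.54 to -5.44, -4.36 as reported). The counts of genes called moved more. Over all cells (506 as reported) DESeq2 called 857 and the replicate block 915, and 159 to 605 were called with 1 library left out. In neuron-like cells (494) the replicate block gave 976 and leaving out a library 225 to 716. In glia-like cells (27) DESeq2 gave 41, no filter on low counts 235, the replicate block 156, no mitochondrial limit 91 and leaving out a library 15 to 172. Among the members the block changed 1 call, that of AttC over all cells. The log2 ratio of fat body-like over neuron-like cells, averaged over 5 libraries (6.85), was 3.36 with 1 CPM added in place of 1 UMI, since both Appl- values rest on 1 cell with 0 UMIs. The mean ratio of glia-like over neuron-like cells (1.37) turned to -0.35. The log2 fold change of Drs over all cells ran from -5.35 to 0.082 with 1 library left out. The summed neuron-like level without the top cell per member has no value, because a library was left at 0 UMIs. Members with a few UMIs per library are limited by depth: AttA, AttB, DptA and DptB were not tested in the reported settings.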

Other observations

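Dro was not lower in Appl- in cluster 42, an unnamed group of 95 cells led by CG1561, Pdh and Cpr72Ec, with Gs2, moody, ninaE and Arr2 also raised. It had 9, 3 and 3 UMIs there in control replicates 1, 2 and 3 (96.8, 42.4 and 147 CPM) and 2, 30 and 4 UMIs in the Appl- replicates (118, 485 and 556 CPM). These rest on 27, 19 and 14 control cells and 6, 25 and 4 Appl- cells, and 20 of the 30 UMIs of Appl- replicate 2 came from 1 cell. In the Appl- libraries this cluster held 22.9% of the 166 member UMIs, neuron-like cells held 50.6% and hemocyte-like cells 25.3%.

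Cluster 20, another unnamed group with EbpIII, CG6126, MFS14, Indy and nec among its leading genes, held 193, 7 and 1 member UMIs in the control replicates and 0 in all of the Appl- libraries. A single cell of control replicate 1 gave 102 of the 193, among them 91 of Dro and 8 of AttA. Marker levels of the cluster moved with the genotype too. The 10 neuron markers summed to 3672, 4439 and 3994 CPM in its control cells and to 9497, 6877 and 18354 CPM in its Appl- cells, the 12 hemocyte markers to 1040.1, 377 and 875 CPM against 259.7, 183 and 53.2 CPM, and the yolk protein genes to 3533, 128 and 135 CPM against 0, 0 and 53.2 CPM. Their part in the difference was not tested.

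Barcodes above the mitochondrial limit, which were used only where that limit was dropped, also had every control library above every Appl- library, although the order within each genotype differed from that of the kept cells. They numbered 24505, 2912 and 2459 in the controls and 6409, 3931 and 1367 in Appl-. The 8 genes summed to 530, 97.6 and 89.1 CPM in these barcodes of the controls and to 14.8, 15.5 and 1.68 CPM in those of Appl-, and the yolk protein genes to 11016, 297 and 656 CPM against 22.9, 15.3 and 7.27 CPM. In control replicate 1 they held 20950 member UMIs, more than the 4006 in its kept cells.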
